A study of Mus musculus with 6 samples.

Results

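Epcam, the matriptase-type proteases and their inhibitors form a small group of genes that act at the surface of epithelial and pluripotent cells. The members are the 5 genes Epcam, St14, Prss8, Spint1 and Spint2. They were chosen by name and function, with earlier results of these data known. Each was read by 1 probeset among the 19938 genes of the comparison. A paralogue of Epcam that belongs to the same family is not analysed here. Epcam encodes a cell surface glycoprotein that joins neighbouring epithelial cells and is also abundant on embryonic stem cells. St14 encodes matriptase, a transmembrane serine protease, and Prss8 encodes prostasin, a membrane-anchored serine protease that works in a common cascade with matriptase. Spint1 and Spint2 encode HAI-1 and HAI-2, transmembrane inhibitors with Kunitz domains that hold these proteases in check. In epithelia the proteases can cut Epcam, and loss of the inhibitors lowers Epcam and claudin protein. Such cleavage acts on proteins, which these arrays do not read.

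The samples are 6 lines of mouse iPS (induced pluripotent stem) cells, with 1 whole-transcript array for each line. All lines were made from OG2 mouse embryonic fibroblasts, whose reporter marks Oct4 activity, with retroviruses for Sox2, Klf4, Oct4 and c-Myc. Control clones 2, 3 and 4 (titled Ctrl 2, Ctrl 3 and Ctrl 4) also received an shRNA directed at luciferase, and shECAD clones 4, 8 and 9 received one directed at E-cadherin, the product of Cdh1. Feeder cells were added by replating on day 6, and the colonies taken on day 14 were then kept on feeders that were removed before RNA was extracted. Each line was grown from picked colonies, and no source used here says that the lines came from separate infections. The p-values therefore measure the spread between lines, with n = 3 per group, and this number limits their precision.

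Cdh1, the gene targeted by the shRNA, had log2 values of 9.18, 9.60 and 9.07 in the control group (clones 2, 3 and 4, the order used from here on) and 6.75, 6.92 and 7.81 in the shECAD group (clones 4, 8 and 9). Every shECAD clone lay below every control clone, and shECAD clone 9 kept the most Cdh1 mRNA of its group. The 14 pluripotent cell markers measured, Pou5f1 and Nanog among them, each lay above the array's median gene in all 6 clones. Among them, Pou5f1 (the Oct4 gene), Sox2 and Klf4 were also delivered by retrovirus, and the part of transgene mRNA in their values was not tested. Of the 14 markers, 0 passed limma's test (5 at an unadjusted p below 0.05, all lower in the shECAD clones). The median log2 fold change of these markers was -0.36, with the largest differences in Esrrb (-0.81), Fgf4 (-0.79) and Dppa4 (-0.70). Their mean log2 level was 9.48 to 9.77 in the control clones and 9.03 to 9.46 in the shECAD clones. Of 27 measured fibroblast and feeder markers, 18 rose in the shECAD clones and 0 fell (24 at an unadjusted p below 0.05). Over all 19938 genes, 1.90% passed the same test as higher and 1.23% as lower, and at least 3535 had an unadjusted limma p below 0.05. With 1 clone left out the 18 rises became 19 (control clone 2), 9 (control clone 3 or 4), 8 (shECAD clone 4), 5 (shECAD clone 8) or 11 (shECAD clone 9), and the calls of 5 markers, Postn, Lox, Fbln2, Ccdc80 and Thy1, held each time. The 27 markers' mean log2 level was 6.62, 6.18 and 5.62 in the control group against 7.27, 7.56 and 7.28 in the shECAD group, and 0 of the 27 lay below the 25th percentile of every array. Their part in the results on the protease axis was not tested. In these bulk samples, fewer cells that make an mRNA and less mRNA per cell cannot be told apart.

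Upstream sequences matched for 3 of the 5 genes, Epcam, Spint1 and Spint2, and are shown so that Spint1, which fell, can be set beside the other 2, which did not pass the test. The other members are St14 and Prss8. The sequences are taken from RefSeq on GRCm38.p6 and read 5′ to 3′ on the strand of the gene. Those of Epcam and Spint1 hold the 250 bases just before the start site, at chr17:87635729-87635978 (plus strand) and chr2:119237110-119237359 (plus strand). For Spint2 only the 168 bases upstream of every annotated transcript are printed, at chr7:29282060-29282227 (minus strand), and they end 82 bases before the start site from which its distances are counted. Capitals mark ACCGGT, the core of the site recognised by grainyhead-like epithelial factors, and CACCTG or its reverse complement CAGGTG, the E-box bound by Snail and Zeb repressors.
Epcam: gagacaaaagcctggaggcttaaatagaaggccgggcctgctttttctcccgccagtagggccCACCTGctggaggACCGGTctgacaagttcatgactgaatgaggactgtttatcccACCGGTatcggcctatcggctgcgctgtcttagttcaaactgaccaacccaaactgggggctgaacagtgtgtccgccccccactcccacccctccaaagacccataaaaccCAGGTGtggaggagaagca
Spint1: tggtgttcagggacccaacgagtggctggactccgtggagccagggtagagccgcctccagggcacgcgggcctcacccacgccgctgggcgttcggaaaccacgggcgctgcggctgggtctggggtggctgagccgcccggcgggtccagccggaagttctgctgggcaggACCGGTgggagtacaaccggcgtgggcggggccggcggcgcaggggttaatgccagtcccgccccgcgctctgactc
Spint2: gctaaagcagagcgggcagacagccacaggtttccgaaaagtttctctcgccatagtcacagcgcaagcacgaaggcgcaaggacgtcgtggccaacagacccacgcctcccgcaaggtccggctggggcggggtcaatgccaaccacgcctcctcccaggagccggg

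The windows differed in these letters. ACCGGT, which reads the same on both strands, occurred 2 times upstream of Epcam, with its first base 174 and 131 bases before the start site, and 1 time upstream of Spint1, at 77 bases. Among 32851 RefSeq windows of 250 bases before a start site, 1.86% held ACCGGT and 9 windows held it 2 or more times. CACCTG, searched on both strands, occurred 2 times upstream of Epcam (187 and 19 bases before the start) and 0 times upstream of Spint1. Upstream of Spint2 it occurred 3 times (74, 55 and 9 bases before the start), all outside the printed stretch, and ACCGGT 0 times. Of all windows, 17.22% held CACCTG and 2.06% held it 2 or more times. GGGCGG, the GC box of Sp and Klf factors, occurred 1 time upstream of Epcam and 3 times each upstream of Spint1 and Spint2 on both strands, against 32.74% of windows with a match and 16.73% with 2 or more. The matches of the 3 motifs did not overlap each other. G and C made up 56.4% of the 250 bases for Epcam, 72.8% for Spint1 and 69.6% for Spint2, where the median of all windows was 52.4%. A match describes these letters and shows no binding.

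In the shECAD clones Prss8 mRNA was higher and Spint1 mRNA was lower than in the control clones, while Epcam, St14 and Spint2 did not pass the test. A gene was called at a limma p below 0.05 after Benjamini-Hochberg adjustment over all 19938 genes. Of the 5 genes, 2 were called, 1 in each direction, where 3.12% of all genes were called (1.90% higher and 1.23% lower). The groups did not overlap in 3 of the 5 genes, Prss8, Spint1 and Spint2, where 23.6% of all genes showed no overlap. As the 5 genes were chosen with earlier results of these data known, these shares describe them and test nothing. The median log2 fold change of the 5 genes was -0.15, against 0.025 over all genes.

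**Figure D1:**
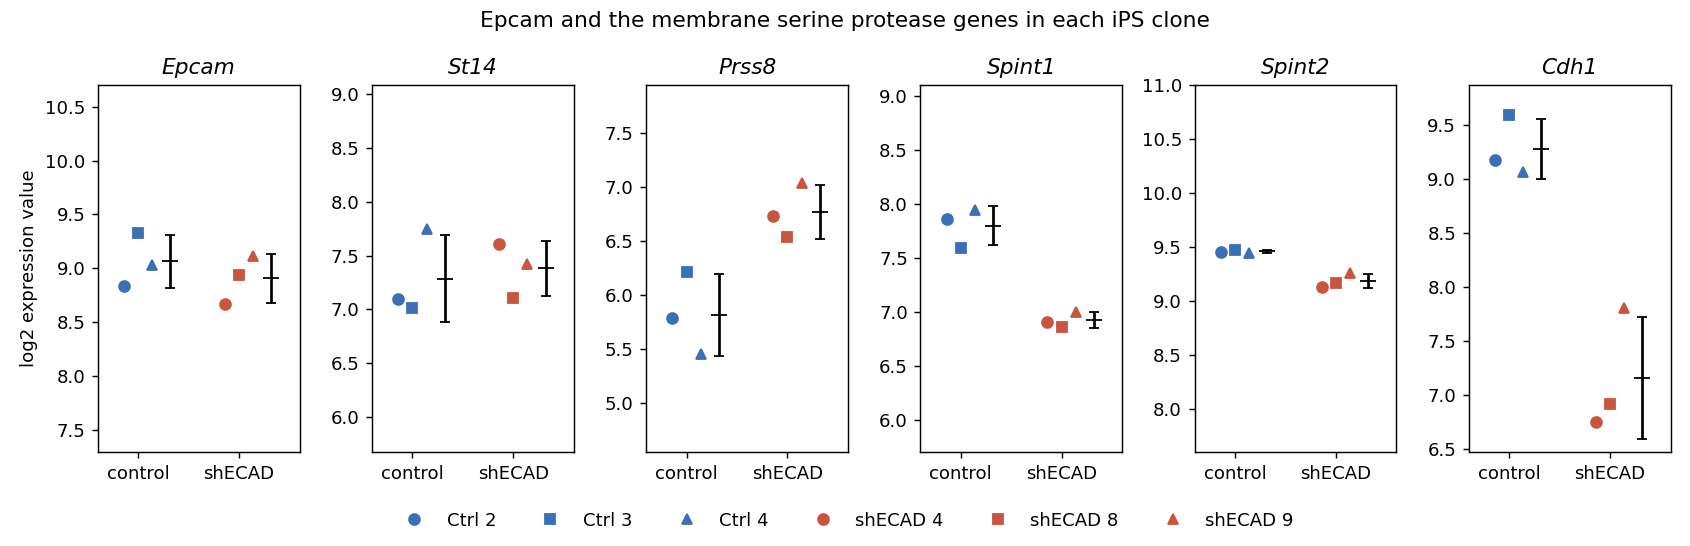
Log2 expression values of the 5 genes and of Cdh1 (y axis, the same span in each panel) in the 3 control and 3 shECAD clones, with each clone as a marker and the group mean ± SD as a black bar (n = 3). Prss8 sits higher and Spint1 lower in every shECAD clone than in any control clone, and the groups overlap for Epcam and St14.

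Epcam mRNA did not separate the groups. The log2 values of probeset 10447383 were 8.84, 9.33 and 9.03 in the control group against 8.67, 8.94 and 9.12 in the shECAD group. The groups overlapped, with shECAD clone 9 above control clones 2 and 4 and shECAD clone 4 the lowest of all. Their averages were 9.07 ± 0.25 and 8.91 ± 0.23 (SD, n = 3 each). This gave a log2 fold change of -0.15 ± 0.18 (SE) with a 95% interval from -0.56 to 0.25 (limma adjusted p = 0.716). On the linear scale this interval runs from 67.7% to 119% of the control level, so that a fall of Epcam to the extent seen for Cdh1, to 22.9% (interval 15.2% to 34.4%), lies outside it. The smallest change with 1 clone left out was -0.022, without control clone 3.

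St14, the matriptase gene, did not separate them either. Probeset 10592001 had log2 values of 7.10, 7.01 and 7.75 in the control group against 7.61, 7.11 and 7.42 in the shECAD group. Control clone 4 was the highest of the 6 and control clone 3 the lowest, so that the control clones enclosed all shECAD clones. The means were 7.29 ± 0.40 and 7.38 ± 0.25 (SD), with a log2 fold change of 0.093 ± 0.22 (SE, 95% interval -0.39 to 0.58, limma adjusted p = 0.864). Its sign turned with array quality weights (-0.014) and when control clone 2 or 3 or shECAD clone 4 was left out.

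Prss8, the prostasin gene, rose in the shECAD clones. Probeset 10568332 had log2 values of 5.79, 6.21 and 5.45 in the control group against 6.73, 6.54 and 7.04 in the shECAD group. Control clone 3 came nearest to the shECAD group, at a gap of 0.33 below shECAD clone 8, and shECAD clone 9 was the highest. The means were 5.82 ± 0.38 and 6.77 ± 0.25 (SD), a 1.93-fold rise (log2 fold change 0.95 ± 0.22 SE, 95% interval 0.48 to 1.43, limma adjusted p = 0.0436). All 6 values lay above the median gene of their array and 5 of them below its 75th percentile. The call was held without control clone 3 (adjusted p = 0.0288) and lost without any 1 of the other 5 clones, with adjusted p-values up to 0.158 (without control clone 4, where the change was 0.77). With the median of every array set equal, the change was 0.86 and the adjusted p 0.0533. Among the 378 genes called higher, 220 had a larger fold change than Prss8.

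Spint1, which encodes HAI-1, fell. Probeset 10474936 had log2 values of 7.86, 7.59 and 7.94 in the control group against 6.90, 6.86 and 7.00 in the shECAD group. The shECAD clones lay within 0.14 of each other, and the gap between the groups was 0.59, from control clone 3 to shECAD clone 9. The means were 7.79 ± 0.18 and 6.92 ± 0.07 (SD), so that the shECAD clones had 54.5% of the control mRNA level (95% interval 42.9% to 69.2%). The log2 fold change was -0.88 ± 0.16 (SE, limma adjusted p = 0.0200), smaller than that of 135 of the 245 genes called lower. The call was lost without control clone 4 (adjusted p = 0.0933), shECAD clone 4 (0.0642) or shECAD clone 8 (0.0733), where the change stayed between -0.87 and -0.81, and held without the other 3.

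Spint2, which encodes HAI-2, lay slightly lower in each shECAD clone without passing the test. Probeset 10561712 had log2 values of 9.46, 9.48 and 9.45 in the control group against 9.13, 9.17 and 9.26 in the shECAD group. The control clones differed by 0.03 at most and the gap between the groups was 0.18, so that the groups did not overlap. The means were 9.46 ± 0.02 and 9.19 ± 0.07 (SD), with a log2 fold change of -0.27 ± 0.14 (SE, 95% interval -0.59 to 0.04, limma adjusted p = 0.346). After quantile normalization the change was -0.18 and the groups overlapped. With the median of every array set equal it was -0.37 (95% interval -0.69 to -0.038), and the groups did not overlap. The interval also left out 0 with a trended robust prior (-0.52 to -0.030) and without variance moderation (-0.39 to -0.16). Spint2 stayed uncalled in each of these settings.

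**Figure D2:**
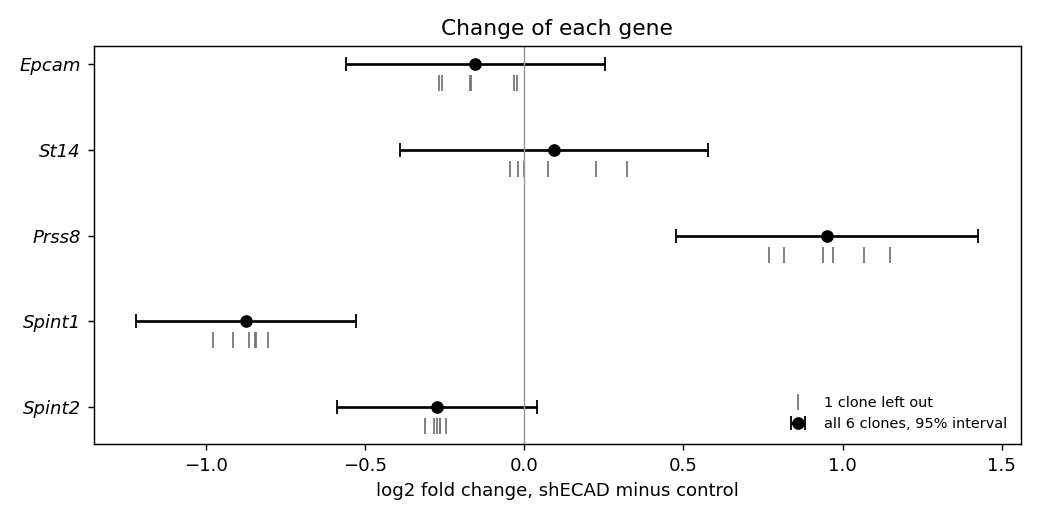
Log2 fold change (x axis, shECAD minus control) of each gene in the fit of all 6 clones, as a point with its 95% interval, and with 1 clone left out, as grey ticks. The intervals of Prss8 (0.48 to 1.43) and Spint1 (-1.22 to -0.53) leave out 0, and those of Epcam, St14 and Spint2 include it.

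The changes of the 5 genes were set against each other as differences of log2 values within each array, over the 10 pairs. Only the shift of such a difference between the groups can be read, since the level of one probeset cannot be set against that of another. In 6 of the 10 pairs the groups did not overlap, and each of these had a two-sided exact permutation p of 0.1 (0.167 after Benjamini-Hochberg adjustment over the 10 pairs). That is the smallest p that the 20 labellings of 3 clones against 3 allow, so this test cannot pass 0.05. Each of the 6 pairs holds Prss8 or Spint1, the called genes, so this count largely restates their changes. The share without overlap among pairs of other genes was not counted.

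Relative to Spint1, both protease genes lay higher in every shECAD clone than in any control clone. These shifts restate the changes of the single genes and are no separate result. St14 itself changed by 0.093 and Spint1 by -0.88, so the shift of St14 minus Spint1 is largely the fall of Spint1. Prss8 minus Spint1 was -2.07, -1.38 and -2.49 in the control group against -0.17, -0.32 and 0.04 in the shECAD group. The means differed by 1.83, more than 3 times the larger SD of 0.56, and this was the widest shift of the 10 pairs. St14 minus Spint1 was -0.76, -0.57 and -0.19 in the control clones and 0.71, 0.26 and 0.42 in the shECAD clones, a shift of 0.97. Control clone 4 and shECAD clone 8 came closest, and the groups did not overlap.

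Between the inhibitors, Spint1 minus Spint2 was -1.60, -1.89 and -1.51 in the control clones and -2.24, -2.31 and -2.27 in the shECAD clones, a shift of -0.60, and every shECAD clone lay lower than any control clone. Epcam minus Spint2 shifted by 0.12 (exact permutation p = 0.6) and Epcam minus St14 by -0.25 (p = 0.5), and in both pairs the groups overlapped. Epcam minus Spint1 shifted by 0.72 and Epcam minus Prss8 by -1.11 (exact permutation p = 0.1 each).

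**Figure D3:**
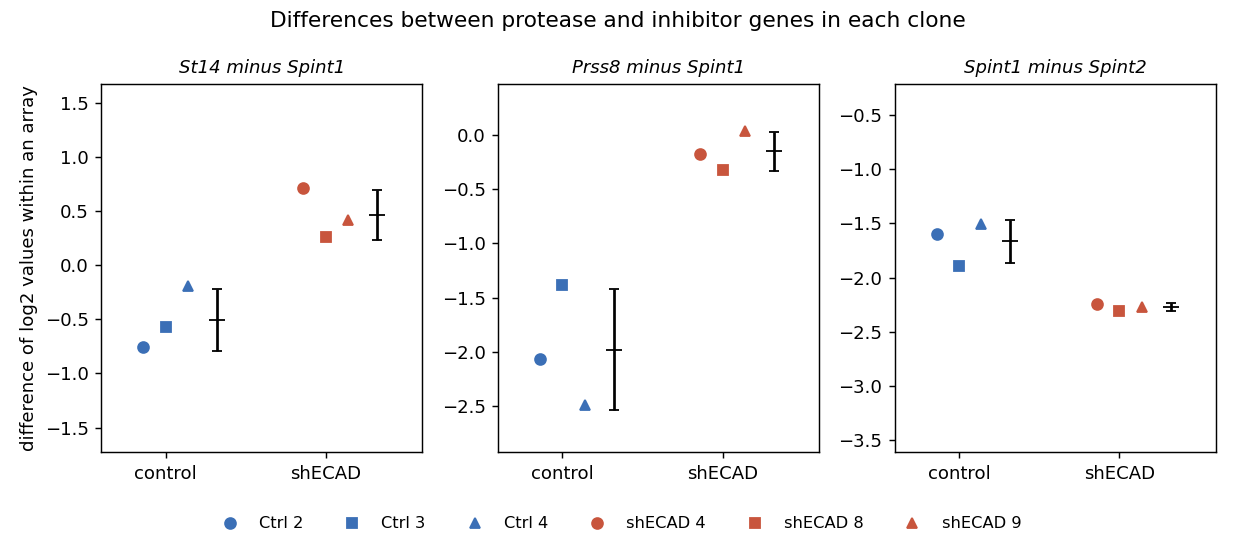
Differences of log2 values within an array (y axis, the same span in each panel) for 3 of the 10 pairs in each clone, with the group mean ± SD as a black bar (n = 3). The groups do not overlap in any of the 3 panels, with shifts of 0.97 for St14 minus Spint1, 1.83 for Prss8 minus Spint1 and -0.60 for Spint1 minus Spint2, while the zero of the axis has no meaning of its own.

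The order of the clones within a group differed from gene to gene. Among the control clones the fibroblast marker level was highest in clone 2 and lowest in clone 4 (6.62 and 5.62), Prss8 was highest in clone 3 and lowest in clone 4, and Spint1 was highest in clone 4 and lowest in clone 3. Among the shECAD clones that level was highest in clone 8, where Prss8 and Spint1 were both at their lowest. Cdh1 was highest in shECAD clone 9, as were Epcam, Prss8, Spint1 and Spint2 within that group, and with 3 clones this order is a description only.

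For each gene, the 3 genes of most similar pattern were sought among the 9964 other genes at or above the median level, by the mean absolute difference over the 6 arrays after each gene was centred on its own mean. For Spint1 they were Uhrf1, which encodes a factor that maintains DNA methylation, at 0.052 on the log2 scale, the Wnt inhibitor gene Notum at 0.064 and the mitochondrial protein gene Chchd10 at 0.070. Their log2 fold changes were -0.85, -0.87 and -0.85, close to the -0.88 of Spint1. For every member such closeness follows from the choice of genes by the same values. For Prss8 they were Zfp334 (0.082), Nab1 (0.094) and Tmem47 (0.099), with changes of 0.84, 0.87 and 0.92. For Spint2 they were Sugp2, Becn1 and Emc4, with differences from 0.016 to 0.025. For Epcam they were Plekha5, Mbtd1 and Dtx3 (0.023 to 0.047), and for St14 Upk2, Gli1 and Cdpf1 (0.093 to 0.095). Genes that vary little lie near each other by this measure whatever their role.

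Of the other serine protease genes listed, few were called, where 1.90% of all genes were called higher and 1.23% lower. Of 18 measured type II transmembrane proteases, the family of matriptase, 1 fell, 0 rose and 17 did not pass (median change 0.17), and 7 lay below the 25th percentile of every array. The one that fell was Tmprss11f, which read 4.03, 3.86 and 4.17 in the control clones and 3.52, 3.21 and 3.25 in the shECAD clones (log2 fold change -0.69, limma adjusted p = 0.0488). Its call was lost without any 1 of the 6 clones (adjusted p up to 0.186, without control clone 4). Its shECAD values all lay at or below 3.52, under the 25th percentile of those arrays (4.08 to 4.32). Its values in control clones 2 and 3 also lay under that percentile (4.18 and 3.96), so the size of the fall is not given as a fold. Of 14 tryptase-like and GPI-anchored proteases, the family of prostasin, limma called 0, with a median of 0.068. Of these 14, 2 had an unadjusted p below 0.05, as did 2 of the 18 type II proteases, where at least 3535 of all 19938 genes had one. The largest log2 differences of the 14 were -0.46 for Prss41, -0.43 for Prss50 and -0.38 for Prss30 (limma adjusted p = 0.231, 0.261 and 0.323). Every gene of both lists, which leave out St14 and Prss8, fell below the array's median gene in at least 1 clone. Small changes in both lists depended on the scaling. After quantile normalization some turned sign, such as Tmprss9 (0.10 to -0.01) and Prss27 (0.10 to -0.02). Others kept it, such as Tmprss2 (0.24 and 0.12). The list medians were not taken at that scaling.

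Among 12 other inhibitors of serine proteases 1 rose, App, and 0 fell, with a median of 0.17, where 1.90% of all genes were called higher. An unadjusted p below 0.05 was found for 3 of the 12, where at least 3535 of all 19938 genes had one. App encodes the amyloid precursor protein, some forms of which carry a Kunitz domain. Its log2 values were 8.35, 7.75 and 7.15 in the control group against 9.16, 9.41 and 9.25 in the shECAD group, a 2.87-fold rise (log2 fold change 1.52 ± 0.26 SE, limma adjusted p = 0.0170). The shECAD clones all lay above the control clones, and among the control clones App, like the fibroblast marker level, was highest in clone 2 and lowest in clone 4. This order was not particular to App. Of the genes called in the next list, Met and Egfr had it too, while Pdgfd was lowest in control clone 3. The call of App was lost without shECAD clone 8 (adjusted p = 0.0678). The log2 change was -0.03 for its relative Aplp2 and 0.84 for Tfpi, another Kunitz inhibitor gene (limma adjusted p = 0.936 and 0.253).

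Of 19 genes for substrates, receptors and plasminogen activation, 3 rose and 0 fell, with a median of 0.34, where 1.90% of all genes were called higher. An unadjusted p below 0.05 was found for 8 of the 19, where at least 3535 of all 19938 genes had one. Met, the receptor for hepatocyte growth factor (HGF), which matriptase-type proteases can activate from its precursor, read 5.03, 4.88 and 4.73 in the control clones and 5.48, 5.81 and 5.75 in the shECAD clones. All shECAD values were higher, by 0.80 ± 0.16 (SE) in the mean (limma adjusted p = 0.0308). For the ligand gene Hgf the log2 change was 0.34 (limma adjusted p = 0.336). Pdgfd, a growth factor gene, rose by 0.98 (log2) and Egfr, a receptor gene, by 0.94 (limma adjusted p = 0.0195 and 0.0276). Met held its call only without control clone 2, and Pdgfd and Egfr only without control clone 2 or shECAD clone 9, with adjusted p-values up to 0.135, 0.0761 and 0.112 (each without control clone 4). Larger changes of 1.17 in Plat, 1.16 in Plaur and 1.15 in Pdgfc did not pass (limma adjusted p = 0.0680, 0.0609 and 0.0820). Scnn1a, Scnn1b and Scnn1g, the subunits of the sodium channel that prostasin activates, showed log2 differences of -0.09, -0.05 and 0.21, short of the threshold (limma adjusted p from 0.504 to 0.931).

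Of 20 measured partners and processing enzymes of Epcam, 3 rose and 0 fell, with a median of 0.23, where 1.90% of all genes were called higher. An unadjusted p below 0.05 was found for 7 of the 20, where at least 3535 of all 19938 genes had one. All 3 called genes were claudin genes of tight junctions. Cldn1 rose from 3.23, 3.06 and 3.36 in the control clones to 4.22, 4.76 and 4.50 in the shECAD clones (log2 fold change 1.28 ± 0.18 SE, limma adjusted p = 0.00919). The control values all lay below the 25th percentile of their arrays (3.96 to 4.18), so the size of this rise is not given as a fold. Cldn4 read 7.97, 8.24 and 8.68 in the control clones and 9.44, 9.20 and 9.44 in the shECAD clones, a 2.09-fold rise (limma adjusted p = 0.0230). Cldn6 read 6.99, 7.13 and 6.94 and then 8.32, 7.75 and 9.07, a 2.56-fold rise (limma adjusted p = 0.0308), and shECAD clone 9 was the highest.

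The call of Cldn1 held when any 1 clone was left out. That of Cldn4 held only without control clone 2 or 4 and that of Cldn6 only without shECAD clone 8 or 9, with adjusted p-values up to 0.0724 and 0.107. Cldn7, the claudin that binds Epcam directly, read 5.93, 6.42 and 6.40 in the control clones and 7.00, 6.73 and 7.91 in the shECAD clones. The groups did not overlap, but its log2 fold change of 0.96 ± 0.28 (SE) did not pass (limma adjusted p = 0.0958). Cd44, which also binds Epcam complexes, had the largest change of the list, 1.45, which also missed the threshold (limma adjusted p = 0.0727). The proteases that cut Epcam at the membrane showed changes of -0.39 for Adam17, 0.05 for Adam10 and 0.28 for Bace1, and subunits of gamma-secretase showed 0.18 for Psen2 and 0.15 for Ncstn, with limma adjusted p-values from 0.325 to 0.891.

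**Figure D4:**
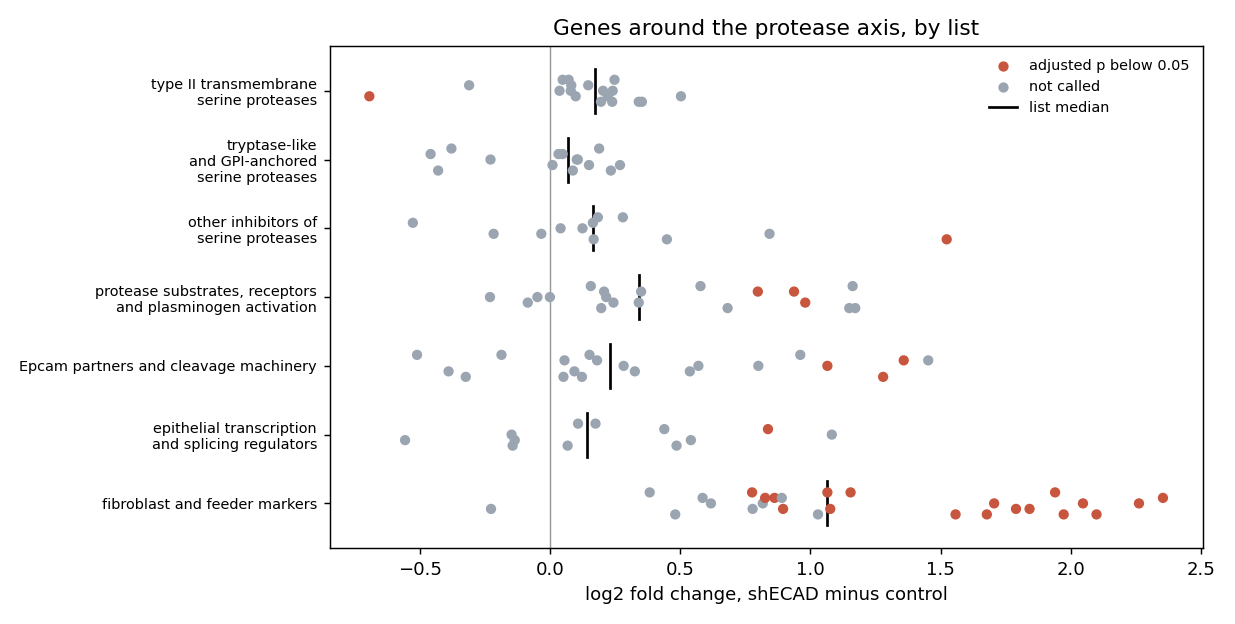
Log2 fold change (x axis, shECAD minus control) of every measured gene in 6 lists around the protease axis and in the list of fibroblast and feeder markers, with called genes in red, other genes in grey and the list median as a black line. On the deposited values, the medians of the 6 lists lie between 0.068 and 0.34, and that of the fibroblast list at 1.07. Medians under other scalings were not taken.

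Of 12 epithelial transcription and splicing regulators, 1 rose and 0 fell, with a median of 0.14, where 1.90% of all genes were called higher. An unadjusted p below 0.05 was found for 5 of the 12, where at least 3535 of all 19938 genes had one. Esrp2, which encodes an epithelial splicing regulator, read 5.04, 5.10 and 5.27 in the control clones and 6.27, 5.85 and 5.79 in the shECAD clones, a 1.79-fold rise (limma adjusted p = 0.0332), and held its call only without shECAD clone 9 (up to 0.101 without shECAD clone 4). Its relative Esrp1 had a larger change of 1.08 that did not pass (limma adjusted p = 0.0783). The grainyhead-like genes Grhl1, Grhl2 and Grhl3 showed log2 differences of 0.07, 0.54 and -0.15, none past the threshold (limma adjusted p = 0.851, 0.245 and 0.723).

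Markers of other cell types in which these proteases and inhibitors are known were mostly not called. Of 10 measured trophoblast markers and 10 markers of surface ectoderm and keratinocytes, limma called 0 in each list. In these lists 2 and 1 had an unadjusted p below 0.05, where at least 3535 of all 19938 genes had one. The mean log2 levels of these lists were 4.50 to 4.74 and 4.60 to 4.94 in the control clones. In the shECAD clones they were 4.83 to 5.07 and 4.81 to 5.19. Tpbpa in the first list, and Dsg3 and Ivl in the second, lay below the 25th percentile of every array. Of 14 extraembryonic endoderm markers 1 rose, the basement membrane gene Col4a1, where 1.90% of all genes were called higher. At an unadjusted p below 0.05 there were 4, Col4a1, Dab2, Gata6 and Foxa2, all higher in the shECAD clones. The largest change was 0.99 in Dab2, which did not pass (limma adjusted p = 0.054). The mean level of the 14 was 4.97 to 5.44 in the control clones and 5.34 to 5.58 in the shECAD clones. Ttr lay below the 25th percentile of every array. Col4a1 (log2 fold change 0.80, limma adjusted p = 0.0467) held its call only without control clone 2 (up to 0.168 without control clone 4) and lost it after median centring (0.0524) and quantile normalization (0.0527). The part of these cells in the changes of Prss8 and Spint1 was not tested.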

How the data were processed

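The deposited table holds log2 expression values for 28853 probesets on 6 arrays, made by the authors. The submitters' processing notes name RMA and Partek, while their versions and settings and the genome build have no statement in the sources used here. RMA subtracts background and summarises probes on a log scale, which compresses the changes of dim probesets. The medians of the arrays ran from 5.11 to 5.30, and nothing was rescaled in the main comparison. By the platform annotation 21789 probesets carry 1 symbol, 1621 several and 5443 none here. Of the first, 21698 matched RefSeq (GRCm38.p6, for names and upstream sequences) by Entrez identifier. The brightest probeset with 1 symbol stood for each of 19938 genes, with no filter.

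The test was limma 3.58.1 (lmFit, eBayes) in R 4.3.3 with no covariate, and p-values were adjusted by Benjamini and Hochberg over all genes. The fit was tested on simulated data. Pairs of genes were compared by exact permutation (scipy 1.17.1). The members and lists were chosen with earlier results of these data known. Named in the text are the 5 members, Cdh1, in each of the 6 lists of related proteases, inhibitors, substrates, partners and regulators up to 5 called genes or else the 3 largest changes, and the 3 genes nearest each member. Other genes were picked from these lists after their values were seen. Listed genes without a probeset named here are not analysed. Alternatives were median centring, quantile normalization, bright genes alone (mean at least the median gene's), averaged probesets, every probeset tested separately, a trended robust prior, no moderation, array weights, an adjusted p of 0.1 and leaving out each clone. Figures were drawn with matplotlib 3.10.9.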

Additional observations from a re-analysis of the deposited data

How the results depend on the processing

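With 3 clones per group, the calls of Prss8 and Spint1 depended on single clones, while both kept their direction under all 14 alternatives. With 1 clone left out, the log2 fold change ran from 0.768 to 1.148 for Prss8, from -0.979 to -0.805 for Spint1 and from -0.044 to 0.323 for St14. The count of the 5 members called then ran from 0 to 2 (limma, with 2 at an unadjusted p below 0.05 each time) and that of all genes from 146, with control clone 4 left out, to 543, with control clone 2 left out. Prss8 lost its call after median centring (0.861, adjusted p = 0.0533), which left 1 member called, and with every probeset on its own (0.951, adjusted p = 0.0841), which also left 1 and called 241 probesets. Without variance moderation limma called 0 members (3 at an unadjusted p below 0.05) and 3 genes, with Prss8 at 0.951 and Spint1 at -0.876. St14 turned to -0.014 with array quality weights, where 1067 genes were called, and 1278 genes passed an adjusted p of 0.1. Other than by the construction of an alternative (more features tested, fewer clones), the cause was not tested. Centring moved the split of called genes from 378 higher and 245 lower to 298 higher and 383 lower. Epcam and Spint2 kept their direction and stayed uncalled throughout, and the shift of Spint1 minus St14 kept its direction, from -1.128 to -0.844 with 1 clone left out. The number of arrays limits what can be seen. No paired analysis was possible because the clone numbers name lines and only the number 4 occurs in both groups.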
